A study of Mus musculus with 2 samples.

Results

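Voltage-gated calcium channels of the high-voltage-activated families are built around a pore-forming alpha-1 subunit that carries a cytosolic beta subunit and an extracellular alpha2delta subunit. The levels and transcript forms of the 8 mouse genes for these auxiliary subunits, Cacnb1 to Cacnb4 and Cacna2d1 to Cacna2d4, were measured in left cerebral cortex. The 8 genes were taken as a list of names, with no measured value used to choose them, though earlier results of these data were known. All 8 matched among 55536 annotated genes. The tissue was taken at 18 to 20 months of age from female mice of B6CASTF1/J, a hybrid of the strains C57BL/6J and CAST/EiJ. Total RNA was sequenced in 2 libraries of 1 group, biological replicates 1 and 2 per the labels, with 300 ng of RNA and added spike-ins as input for each. There was no treatment or other condition to compare. Both biosamples carry the same donor entry in the labels, so it is not clear that they came from separate animals, and the spread between the libraries may be technical.

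A beta subunit binds a conserved stretch in the linker between the first domains of the alpha-1 subunit, brings the channel to the cell surface and tunes its gating, and small GTPases of the RGK family act on the channel through it. An alpha2delta subunit is made as a single precursor, cleaved into an alpha2 and a delta peptide, and anchored outside the membrane, where it raises the number of channels at the surface and at presynaptic terminals. In cortex, these subunits serve both the presynaptic channels that trigger transmitter release and the somatic and dendritic channels. Low-voltage-activated alpha-1 subunits are not known to need either partner.

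Within a class the encoded proteins were related to differing degrees. The 4 beta proteins, translated from the annotated coding sequences, shared 62.9% to 73.0% of aligned residues in the 6 pairs. Cacnb2 was represented there by Cacnb2-214, a coding transcript annotated as principal, which held 1.51% of the gene's TPM in replicate 1 and 0.465% in replicate 2. The 4 alpha2delta proteins shared 30.4% to 58.3%, the closest pair being Cacna2d3 with Cacna2d4 at 58.3% and the next Cacna2d1 with Cacna2d2 at 55.7%. The coding frames had 484 codons in Cacnb3-206, 519 in Cacnb4-201 and 597 in Cacnb1-201, against 1084 in Cacna2d1-202 and 1154 in Cacna2d2-202.

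Transcripts of the same gene differ at a few alternative coding segments, on which the transcript results rest. The sequences are from GENCODE M21 transcripts on mm10, given on the coding strand. Capitals mark the alternative segment and lower case the shared coding bases beside it. The first set shows the splice site in Cacna2d1 at which transcripts carry one of a pair of different 21-base inserts or none. It also shows a 57-base exon that is known from the skeletal muscle form, and the 21-base exon of the related gene Cacna2d2. The Cacna2d1-203 exon lies at chr5:16341990-16342010 on the plus strand. The Cacna2d1-205 insert is split over 3 pieces of 4, 9 and 8 bases, at chr5:16340784-16340787, chr5:16342552-16342560 and chr5:16342675-16342682. The 57-base exon of Cacna2d1-201 lies at chr5:16322539-16322595, and the Cacna2d2-205 exon at chr9:107519179-107519199, plus strand.
Cacna2d1-203: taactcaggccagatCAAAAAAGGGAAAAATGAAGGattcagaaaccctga
Cacna2d1-205: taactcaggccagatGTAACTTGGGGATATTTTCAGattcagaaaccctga
Cacna2d1-201: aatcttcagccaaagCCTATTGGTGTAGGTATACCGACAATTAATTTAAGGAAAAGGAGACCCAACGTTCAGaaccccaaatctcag
Cacna2d2-205: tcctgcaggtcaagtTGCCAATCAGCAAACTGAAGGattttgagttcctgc

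The second set shows the alternative exon pair in the middle of Cacnb1, a 20-base exon at chr11:98010627-98010646 and a 155-base exon at chr11:98011343-98011497, both on the minus strand. The long exon is known from beta1a, the form of skeletal muscle, and the short one from the forms of brain. An 81-base exon of Cacnb3, at chr15:98641177-98641257 on the plus strand, is present in Cacnb3-206 and Cacnb3-202 and absent from Cacnb3-201.
Cacnb1-201: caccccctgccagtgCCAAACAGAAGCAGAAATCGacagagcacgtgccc
Cacnb1-202: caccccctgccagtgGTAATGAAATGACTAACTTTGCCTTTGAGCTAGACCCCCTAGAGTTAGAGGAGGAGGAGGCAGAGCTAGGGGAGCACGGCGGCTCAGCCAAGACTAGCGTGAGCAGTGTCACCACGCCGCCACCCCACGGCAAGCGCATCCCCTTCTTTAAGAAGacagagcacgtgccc
Cacnb3-206: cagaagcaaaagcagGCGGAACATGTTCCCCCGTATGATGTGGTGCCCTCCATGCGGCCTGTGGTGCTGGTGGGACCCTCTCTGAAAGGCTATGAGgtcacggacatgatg

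The third set shows the alternative starts of the coding frame in Cacnb2, Cacnb3 and Cacnb4, each of which runs into the same downstream exon of its gene (lower case). The beginning of a beta protein is the part that differs most between splice forms and is known to set their gating and their place in the cell. On chromosome 2 the Cacnb2 starts lie, plus strand, at chr2:14604451-14604558 with chr2:14614264-14614356 (Cacnb2-203), chr2:14739716-14739763 (Cacnb2-210), chr2:14824256-14824306 (Cacnb2-214) and chr2:14873877-14873945 (Cacnb2-202).
Cacnb2-203: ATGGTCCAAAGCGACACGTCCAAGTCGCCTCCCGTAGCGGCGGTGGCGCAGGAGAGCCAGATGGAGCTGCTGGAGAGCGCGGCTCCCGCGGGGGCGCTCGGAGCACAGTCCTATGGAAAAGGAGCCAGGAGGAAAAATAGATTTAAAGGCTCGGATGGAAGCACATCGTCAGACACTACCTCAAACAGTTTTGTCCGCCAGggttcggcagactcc
Cacnb2-210: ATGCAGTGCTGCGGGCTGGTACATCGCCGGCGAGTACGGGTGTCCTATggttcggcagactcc
Cacnb2-214: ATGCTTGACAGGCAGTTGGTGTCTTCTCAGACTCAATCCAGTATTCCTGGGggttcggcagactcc
Cacnb2-202: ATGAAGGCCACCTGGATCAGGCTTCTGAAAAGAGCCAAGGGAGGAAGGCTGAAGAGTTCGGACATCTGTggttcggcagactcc

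In Cacnb3 the starts lie at chr15:98635169-98635213 (Cacnb3-206 and Cacnb3-201) and chr15:98632479-98632520 (Cacnb3-202), plus strand. In Cacnb4, on the minus strand, they lie at chr2:52676271-52676330 with chr2:52675728-52675811 (Cacnb4-201), chr2:52558269-52558313 (Cacnb4-202) and chr2:52556202-52556207 (Cacnb4-203).
Cacnb3-206: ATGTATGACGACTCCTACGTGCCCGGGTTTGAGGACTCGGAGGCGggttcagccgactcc
Cacnb3-202: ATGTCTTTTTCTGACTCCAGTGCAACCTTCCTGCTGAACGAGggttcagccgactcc
Cacnb4-201: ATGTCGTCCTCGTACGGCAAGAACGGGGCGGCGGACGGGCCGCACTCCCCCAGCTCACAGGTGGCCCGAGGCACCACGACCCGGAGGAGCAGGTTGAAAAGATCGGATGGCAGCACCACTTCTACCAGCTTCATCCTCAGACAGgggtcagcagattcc
Cacnb4-202: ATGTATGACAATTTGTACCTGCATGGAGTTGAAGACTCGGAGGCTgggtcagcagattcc
Cacnb4-203: ATGGCTgggtcagcagattcc

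The depth of replicate 1 was 32504959 expected counts and that of replicate 2 was 24899781. Levels are given in TPM, read counts scaled by effective transcript length and then to a fixed sum, so that they can be compared between genes. Each level is the value of the gene table, made from a transcriptome alignment, unless the alignment-free table, made from the same reads with an index, is named. The label cortex could be checked against marker genes: the 5 markers of all neurons summed to 2777 TPM in replicate 1 and 2715 TPM in replicate 2, and none of the 3 cerebellar markers reached 1 TPM in both libraries (Gabra6 was listed at 0 in both). In bulk tissue, fewer cells of a type and less RNA per cell cannot be told apart.

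The cortex libraries held all 4 beta subunit genes and 3 of the 4 alpha2delta genes at 1 TPM or more in both replicates. Over all annotated genes 26.7% reached this level in both libraries, and over nuclear protein-coding genes 58.3% did. Cacnb3 was the most abundant member and Cacna2d1 the most abundant alpha2delta gene, while Cacna2d4 was near the detection threshold. The order by mean level was Cacnb3, Cacna2d1, Cacnb4, Cacnb1, Cacna2d3, Cacnb2, Cacna2d2, Cacna2d4. Among neighbours in that order, only Cacnb4 and Cacnb1 overlapped between the libraries.

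**Figure D1:**
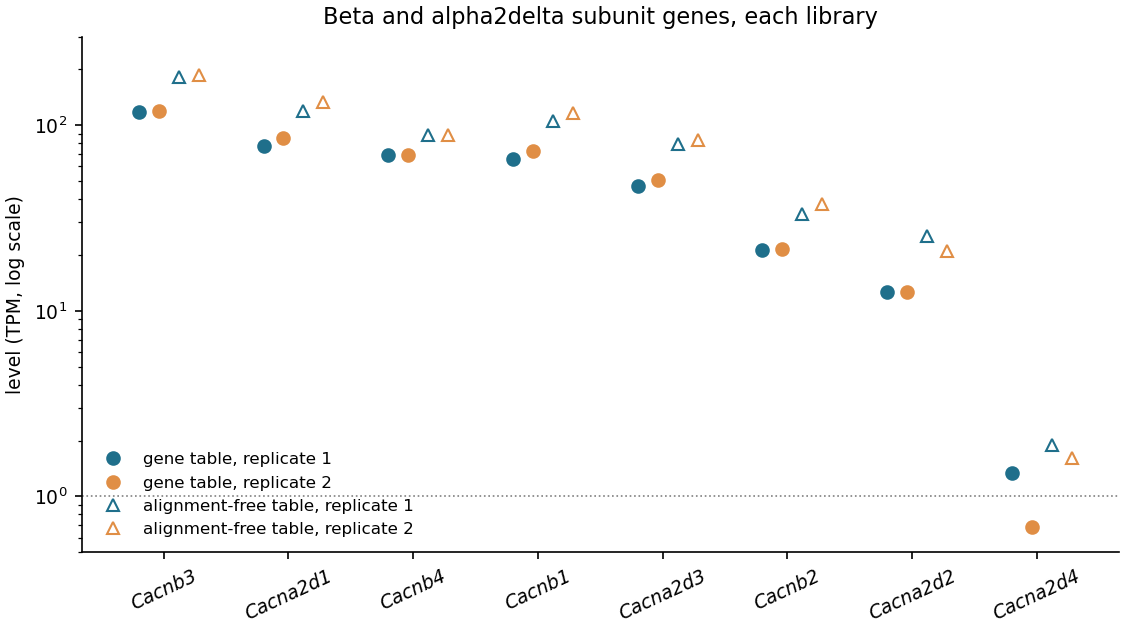
Level of each member in TPM (log axis) in replicate 1 (blue) and replicate 2 (orange), from the gene table (filled circles) and the alignment-free table (open triangles); the dotted line is at 1 TPM. Cacnb3 is highest at 118.6 and 119.6 TPM in the gene table, and Cacna2d4 is the sole member with a value below 1 TPM, 0.68 TPM in replicate 2.

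Among the beta genes, Cacnb3 (ENSMUSG00000003352.14, chr15:98630840-98644529, plus strand), which encodes a beta subunit of neuronal channels, measured 118.6 TPM in replicate 1 and 119.6 TPM in replicate 2. Its mean was 119.1 ± 0.686 TPM (SD, n = 2). It lay above 94.8% of the protein-coding genes detected. Its libraries were close together and higher than those of any other member.

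Cacnb4 (ENSMUSG00000017412.15, chr2:52428320-52676831, minus strand), the gene lost in the ataxic and epileptic lethargic mouse, measured 69.35 TPM in both libraries. It received more counts than any other member in replicate 1, 10513 against 10051 for Cacna2d1. In replicate 2 its 7692 counts were below the 8194 of Cacna2d1 and above those of the other members. By TPM, which takes transcript length into account, it stood behind Cacnb3 and Cacna2d1 in both libraries. Its transcripts are long: the leading one, Cacnb4-201, has 8225 bases, of which 1557 are coding.

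Cacnb1 (ENSMUSG00000020882.17, chr11:98001508-98023034, minus strand), known in muscle for its role in excitation-contraction coupling and also expressed in brain, measured 65.57 TPM in replicate 1 and 72.63 TPM in replicate 2. Its mean of 69.1 ± 4.99 TPM (SD, n = 2) could not be told apart from that of Cacnb4. Markers of skeletal muscle were almost absent, with a sum of 6.16 TPM in replicate 1 and 6.49 TPM in replicate 2 over 5 genes, 1 of them (Acta1) detected and Tnnt3 at 0 counts in both libraries.

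Cacnb2 (ENSMUSG00000057914.15, chr2:14603088-14987908, plus strand), the main beta subunit gene of heart and also present in brain, was the lowest of the class and measured 21.23 TPM in replicate 1, beside 21.50 TPM in replicate 2. Its mean of 21.4 ± 0.191 TPM (SD, n = 2) lay above 59.8% of the protein-coding genes detected. Of 3 cardiac muscle markers 2 were detected, Tnnt2 at 6.20 ± 0.905 TPM and Myh6 at 2.85 ± 1.01 TPM (SD, n = 2 each), and the 3 summed to 7.86 TPM in replicate 1 and 10.48 TPM in replicate 2. Their part in the level of Cacnb2 was not tested. In shares of the class, Cacnb3 made up 42.7% ± 0.653 of the summed beta level, Cacnb4 24.9% ± 0.523, Cacnb1 24.8% ± 1.27 and Cacnb2 7.66% ± 0.0928 (SD, n = 2 each).

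Among the alpha2delta genes, Cacna2d1 (ENSMUSG00000040118.15, chr5:15934691-16374511, plus strand), which encodes a target of the drugs gabapentin and pregabalin, measured 77.44 TPM in replicate 1 and 85.85 TPM in replicate 2. Its mean was 81.6 ± 5.95 TPM (SD, n = 2), above 91.0% of the protein-coding genes detected. Cacna2d3 (ENSMUSG00000021991.9, chr14:28904943-29721864, minus strand), known for a role in pain and auditory processing in mice, measured 46.85 TPM in replicate 1 and 50.53 TPM in replicate 2. Both libraries placed it below Cacna2d1 and above the other alpha2delta genes.

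Cacna2d2 (ENSMUSG00000010066.15, chr9:107399612-107529343, plus strand), the gene lost in the ataxic ducky mouse and the other gabapentin-binding alpha2delta protein, measured 12.68 TPM in replicate 1 and 12.57 TPM in replicate 2. Cacna2d1 made up 56.7% ± 0.976 of the summed alpha2delta level, Cacna2d3 33.8% ± 0.0747, Cacna2d2 8.78% ± 0.543 and Cacna2d4 0.708% ± 0.359 (SD, n = 2 each).

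Cacna2d4 (ENSMUSG00000041460.14, chr6:119236526-119352407, plus strand), the alpha2delta subunit known from photoreceptor terminals, measured 1.33 TPM in replicate 1 and 0.68 TPM in replicate 2. These values rest on 39 and 30 counts. Scaled to library size (CPM) the counts were nearly equal, 1.28 CPM in both libraries, so the gap in TPM did not appear in the counts. The effective length that the gene table assigned was 1300 bases in replicate 1 and 2624 bases in replicate 2, and the difference in transcript assignment behind it is described with the transcripts. Of 5 photoreceptor markers none was detected, their sum was 1.31 TPM in replicate 1 and 2.33 TPM in replicate 2, and Crx was at 0 counts in both gene tables. Lrtm2, on the opposite strand within Cacna2d4, measured 30.42 TPM in replicate 1 and 30.00 TPM in replicate 2. Whether the counting used strand is not given in the sources used here, and the part of Lrtm2 reads in the Cacna2d4 counts was not tested.

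Summed over the class, the beta genes reached 274.8 TPM in replicate 1 and 283.1 TPM in replicate 2, and the alpha2delta genes 138.3 TPM and 149.6 TPM in the same order. The alpha2delta sum was thus 0.503 of the beta sum in replicate 1 and 0.529 in replicate 2. The high-voltage-activated alpha-1 genes, the channels these subunits assemble with, summed to 221.4 TPM in replicate 1 and 296.2 TPM in replicate 2 over 7 genes, led by Cacna1a at 96.2 ± 18.6 TPM, Cacna1e at 71.4 ± 15.6 TPM and Cacna1b at 39.8 ± 5.98 TPM (SD, n = 2 each). The beta sum was therefore above the alpha-1 sum in replicate 1, with a ratio of 1.24, and just below it in replicate 2, with a ratio of 0.956. The alpha2delta sum was below the alpha-1 sum in both, at 0.625 and 0.505 of it. The order of beta and alpha-1 sums thus depended on the library.

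**Figure D2:**
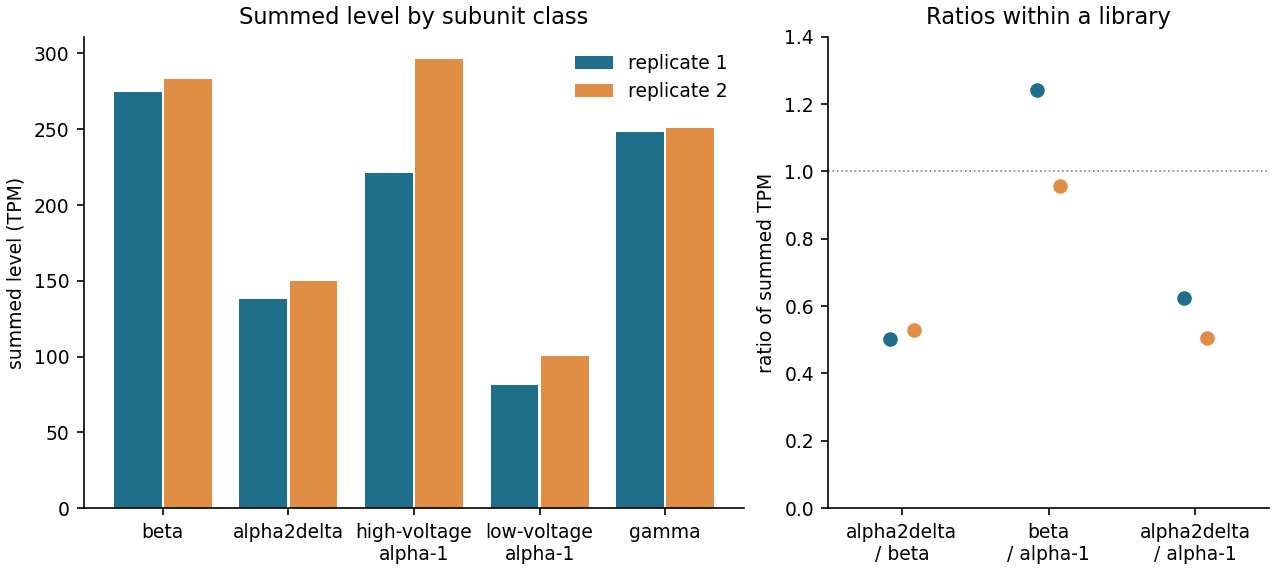
Left, summed level in TPM by subunit class in replicate 1 (blue) and replicate 2 (orange). Right, ratios of the sums within each library, where alpha-1 means the high-voltage-activated genes and the dotted line marks 1. The beta bars differ little between the libraries (274.8 and 283.1 TPM), while the alpha-1 bars differ more (221.4 and 296.2 TPM), and the ratio of beta to alpha-1 lies on either side of 1.

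Lists chosen by function held genes that work with these subunits, to be read beside the 58.3% of nuclear protein-coding genes detected. Of the beta partners 7 of 8 were detected, with a median of 6.11 TPM. The most abundant were Rims1 at 151.6 ± 7.75 TPM and Rims2 at 72.1 ± 4.79 TPM, active-zone scaffolds whose RIM proteins bind beta subunits. Next came Ppp2r5d, a regulatory subunit of protein phosphatase 2A, at 35.5 ± 1.03 TPM (SD, n = 2 each). The RGK GTPases Rem2, Rrad and Gem lay between 1.18 and 2.17 TPM on average. Rem1 averaged 0.665 TPM and was not detected. All 8 genes listed as partners or relatives of alpha2delta were detected, among them Prnp, the prion protein, at 356.4 ± 19.1 TPM and Lrp1, an endocytic receptor, at 133.4 ± 22.3 TPM (SD, n = 2 each). Cachd1, an alpha2delta-like protein, averaged 5.82 TPM, and the thrombospondins, of which Thbs4 and others bind Cacna2d1 protein, lay between 1.03 and 8.20 TPM.

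The gamma genes, of which several serve AMPA receptors and not calcium channels, were detected in 6 of 8 cases, beside 58.3% of nuclear protein-coding genes. Summed, the gamma genes reached 247.9 TPM in replicate 1 and 250.8 TPM in replicate 2. In order of level they began with Cacng7 at 79.8 ± 1.39 TPM, Cacng8 at 70.7 ± 0.297 TPM and Cacng3 at 57.6 ± 1.28 TPM (SD, n = 2 each). Cacng1, the gamma subunit of the skeletal muscle channel, averaged 0.07 TPM. Of 7 other channel partners 6 were detected, among them the SNARE gene Stx1a at 136.9 TPM and Tspoap1, whose protein links channels to RIM, at 88.0 TPM on average. The low-voltage-activated alpha-1 genes Cacna1g, Cacna1i and Cacna1h averaged 43.2, 27.3 and 20.3 TPM. Their sum, 81.3 TPM in replicate 1 and 100.3 TPM in replicate 2, was below that of the beta genes in both libraries.

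The libraries gave closely similar CPM for every member. Cacnb3 had 200.6 CPM in replicate 1 and 196.0 CPM in replicate 2, Cacnb4 had 325.5 and 309.8, and Cacna2d1 had 311.2 and 330.0, in the same order. On the log2 scale the ratio of replicate 1 over replicate 2 lay between -0.10 for Cacnb2 and 0.07 for Cacnb4. By CPM none of the 8 members passed 1.5-fold, where 14.3% of 18246 genes did in one direction or the other. The 95% interval of counting error (exact binomial) excluded equal levels for Cacna2d1 (-0.13 to -0.04), Cacnb1 (-0.15 to -0.03) and Cacnb4 (0.03 to 0.11). It included equal levels for the other 5 members and was widest for Cacna2d4, from -0.72 to 0.74. With 1 library on each side, these intervals cover counting error only. Scaled by spike-in totals, the median over all genes moved by -0.16 and every member was lower in replicate 1, from -0.26 for Cacnb2 to -0.09 for Cacnb4.

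**Figure D3:**
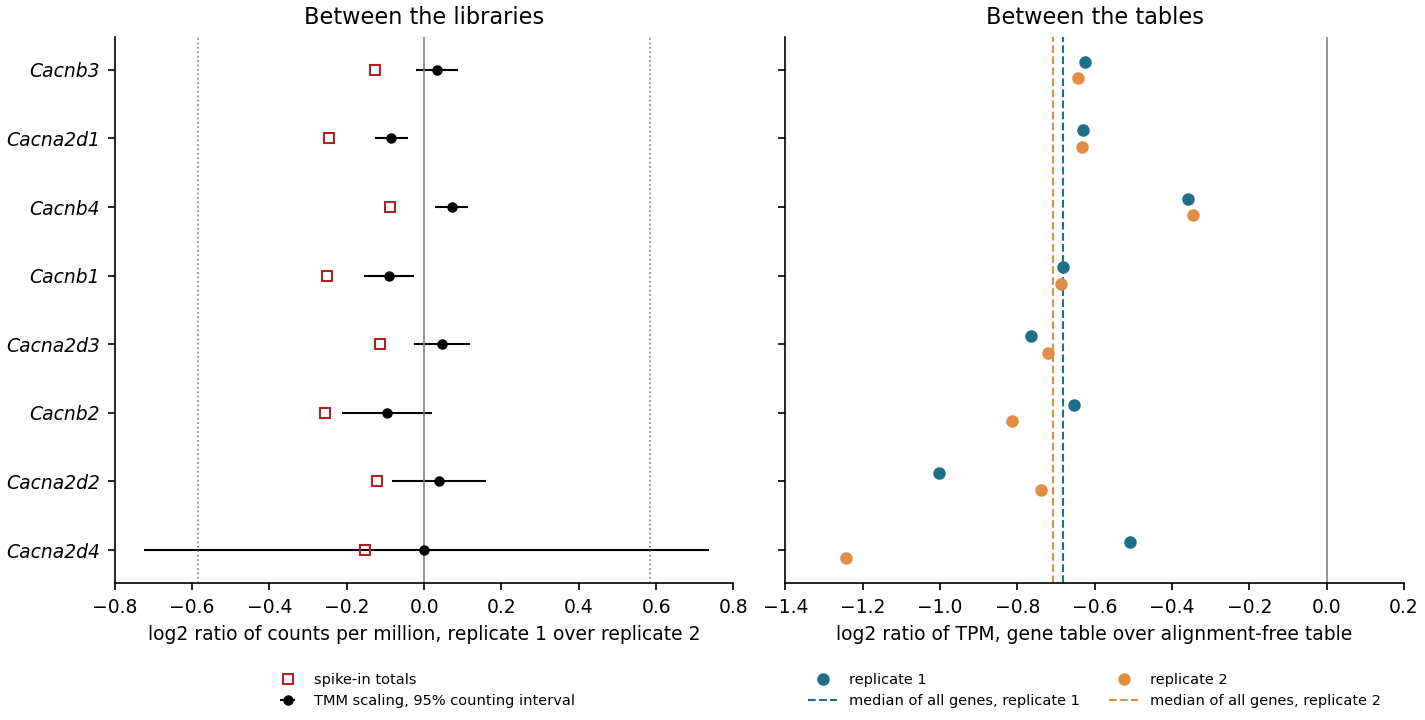
Left, log2 ratio of CPM, replicate 1 over replicate 2, with TMM scaling (black, bars are 95% exact binomial counting intervals) and with spike-in totals (red squares); dotted lines mark 1.5-fold. Right, log2 ratio of TPM, gene table over alignment-free table, in each replicate, with dashed lines at the median of the genes compared. No member reaches 1.5-fold in CPM between the libraries, and Cacnb4 stands to the right of the dashed lines in both replicates.

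The alignment-free table gave higher TPM for every member in both libraries. For replicate 1, the level of Cacnb3 was 118.6 TPM by the gene table but 183.0 TPM by the alignment-free one, and for replicate 2 it was 119.6 and 186.8 TPM in the same order. Past 1.5-fold in the same direction in both libraries were 6 of the 8 members, all but Cacnb4 and Cacna2d4, beside 64.7% of 15006 genes. Those genes had a mean of 1 TPM or more in the gene table. The gap was thus a general one. The median gene had 0.618 of its alignment-free TPM in the gene table. After the median was subtracted, in a step chosen after seeing the data, none of the 8 members and 5.72% of those genes passed 1.5-fold. Cacnb4 was then 0.32 above the median on the log2 scale in replicate 1 and 0.36 above it in replicate 2. Its level was 88.9 TPM in replicate 1 and 88.1 TPM in replicate 2 of the alignment-free table, where Cacnb1 measured 105.1 and 117.0 TPM. Cacnb1 thus stood above Cacnb4 in both libraries of that table.

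Transcript shares were taken from 4 transcript tables, an alignment-based and an alignment-free one for each library. A share is a transcript's part of its gene's TPM, estimated from reads that mostly fall in sequence common to several transcripts, and not a count of reads that cross a given exon. For 4 of the 8 members (Cacnb1, Cacnb2, Cacnb4 and Cacna2d3) the same transcript led in all 4 tables, against 64.4% of 12413 genes. Those genes had a mean of 1 TPM or more and more than 1 transcript. The members have 6 to 16 annotated transcripts, and the percentage was not taken over genes with like numbers of transcripts. For Cacnb3, Cacna2d1 and Cacna2d2 the leading transcript was the same in both libraries but differed between the kinds of table. For Cacna2d4 the alignment-based tables differed between the libraries.

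**Figure D4:**
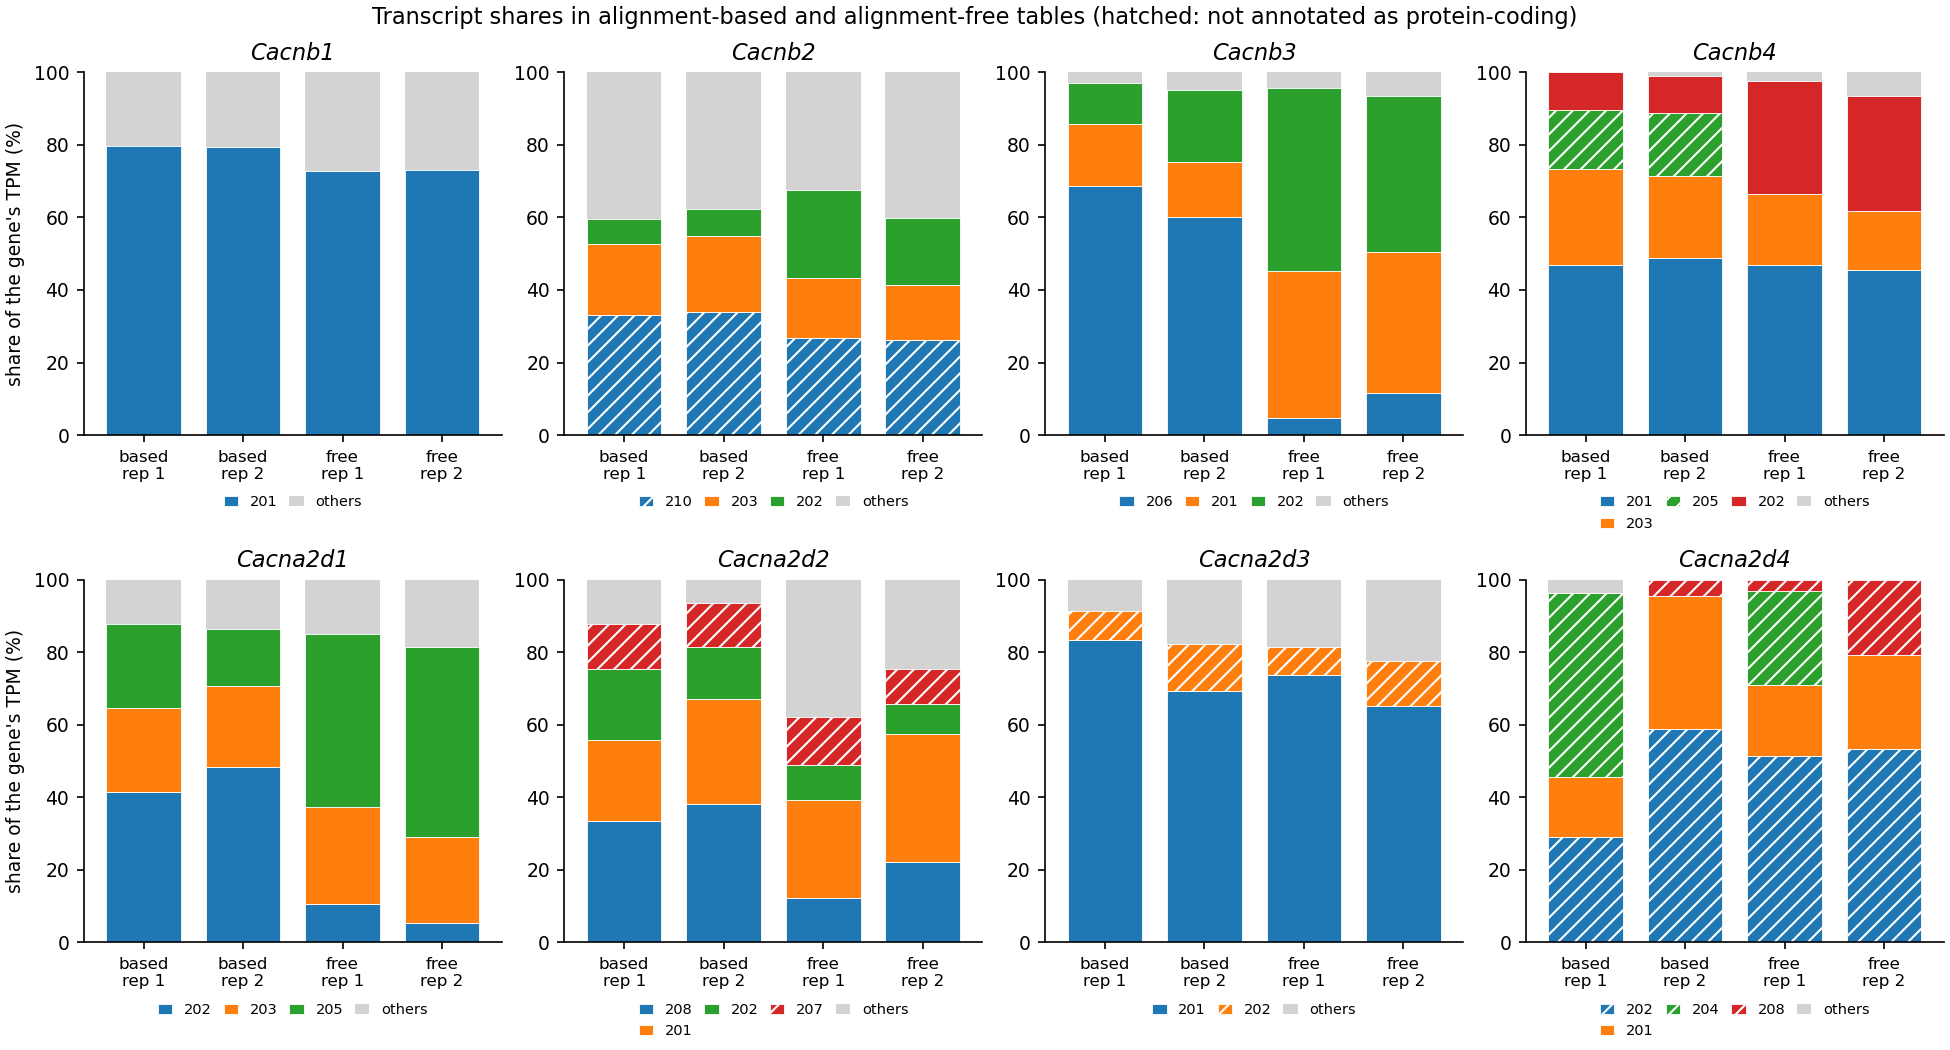
Share of each gene's TPM, in percent, held by its transcripts in the alignment-based tables (based) and alignment-free tables (free) of replicates 1 and 2; transcripts with a mean share of 10% or more in either kind of table are coloured and numbered, and hatching marks those not annotated as protein-coding. Cacnb1-201 fills most of its bars in all 4 tables, whereas Cacnb3-206 holds 68.7% and 60.2% of the gene in the alignment-based tables and 4.83% and 11.6% in the alignment-free ones.

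Cacnb1 was the clearest case. Cacnb1-201, with the 20-base exon printed above, held 79.7% in replicate 1 and 79.5% in replicate 2 of the alignment-based tables, and 72.7% and 73.0% of the alignment-free ones. Summed over the 5 full-length coding transcripts, those with the 20-base exon made up 94.7% in replicate 1 and 93.1% in replicate 2 in the alignment-based tables and 91.4% and 86.4% in the alignment-free tables. Transcripts with the 155-base exon made up the remainder, 5.28% and 6.93% in the first kind and 8.62% and 13.6% in the second. Most of this came from Cacnb1-204, a form of 477 codons that starts downstream of the other full-length coding transcripts. It had 5.09% and 6.44% of the gene in the alignment-based tables and 8.09% and 10.6% in the alignment-free ones. Cacnb1-203 was at 0 in all 4 tables. Cacnb1-202 was at 0 except for 1.77% in replicate 2 of the alignment-free tables. All 4 tables therefore gave the short exon the larger part.

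Cacna2d1 carried little of its muscle-type exon. The 57-base exon was held by 1 transcript, Cacna2d1-201, with 0.130% in replicate 1 and 0.175% in replicate 2 of full-length coding TPM in the alignment-based tables and 1.42% and 1.43% in the alignment-free tables. At the 21-base site, transcripts with the exon of Cacna2d1-203 summed to 27.5% in replicate 1 and 25.7% in replicate 2 in the alignment-based tables, and to 33.3% and 31.5% in the alignment-free ones. Most of this came from Cacna2d1-203 itself, with 23.2% and 22.2% of the gene in the alignment-based tables and 26.8% and 23.7% in the alignment-free ones. This exon is known from the brain form of the protein.

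The tables disagreed over the rest of Cacna2d1. Cacna2d1-202, which has no insert at that site, led in the alignment-based tables with 41.5% in replicate 1 and 48.3% in replicate 2, and had 10.6% and 5.28% in the alignment-free ones. Cacna2d1-205, with the other 21-base insert, had 23.1% and 15.8% in the alignment-based tables and led in the alignment-free ones with 47.6% and 52.5%. Both share the distal 3′ end of the gene, 3442 bases beyond the proximal one. Together they held 72.4% in replicate 1 and 74.1% in replicate 2 of full-length coding TPM in the alignment-based tables, against 65.3% and 67.0% in the alignment-free ones. The larger part of Cacna2d1 thus went to transcripts with the distal end in every table, while the split between the pair with and without the insert did not hold across tables.

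Cacnb2 was led by a transcript that the annotation does not call coding. Cacnb2-210, annotated as a processed transcript, held 33.0% of the gene's TPM in replicate 1 and 34.0% in replicate 2 of the alignment-based tables, and 26.7% and 26.2% of the alignment-free ones. Its sequence has an open reading frame of 604 codons that a search of all 3 forward frames found. After 48 bases of its own, printed above, the frame runs in the same phase through 1764 coding bases of Cacnb2-203, which is 89.8% of that transcript's coding sequence. Codons 3 and 4 of the frame both spell cysteine. A pair of cysteines at this place is known from the palmitoylated, membrane-bound form beta2a, described in rat. The annotated coding transcripts of Cacnb2 made up 43.4% of the gene in replicate 1 and 35.0% in replicate 2 of the alignment-based tables, and 45.8% and 45.2% of the alignment-free ones, with Cacnb2-210 left out of these sums. Whether the frame is translated was not measured.

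Of the annotated coding forms, Cacnb2-203 had 19.7% in replicate 1 and 20.98% in replicate 2 in the alignment-based tables and 16.7% and 15.1% in the alignment-free ones. Cacnb2-202 had 6.88% and 7.49% in the first kind and 24.2% and 18.5% in the second. Among the 3 full-length annotated coding transcripts, the start of Cacnb2-203 took 70.1% in replicate 1 and 72.5% in replicate 2 by the alignment-based tables and 40.9% and 44.9% by the alignment-free ones. The order of these forms therefore turned with the table. A coding fragment of 430 bases, Cacnb2-212, received 12.5% in replicate 1 of the alignment-based tables and 0 in the other 3.

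Cacnb3 was assigned to different coding transcripts by the tables. Cacnb3-206 led in the alignment-based tables, with the values given in the plot of transcript shares. In the alignment-free tables Cacnb3-202 led with 50.3% in replicate 1 and 43.0% in replicate 2, against 11.3% and 19.9% in the alignment-based ones. Cacnb3-201, which lacks the 81-base exon, had 17.1% and 15.2% in the alignment-based tables and 40.4% and 38.8% in the alignment-free ones. Transcripts with the 81-base exon summed to 82.4% in replicate 1 and 84.1% in replicate 2 of full-length coding TPM in the alignment-based tables and to 57.7% and 58.4% in the alignment-free ones. They were the larger part in all 4 tables, though by very different margins. The coding start shared by Cacnb3-206 and Cacnb3-201 took 88.3% in replicate 1 and 79.1% in replicate 2 by the alignment-based tables, against 47.3% and 54.0% by the alignment-free ones. It was thus not the larger part in every table.

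Cacnb4 starts its transcripts at widely spaced places, the most upstream start of a full-length coding transcript lying 118264 bases before the first internal one. The upstream form Cacnb4-201 led in all 4 tables, with 47.0% in replicate 1 and 48.8% in replicate 2 of the alignment-based tables and 46.9% and 45.6% of the alignment-free ones. Its coding start, which Cacnb4-206 shares, made up 56.2% and 59.8% of full-length coding TPM by the alignment-based tables and 48.8% and 51.5% by the alignment-free ones. Cacnb4-203, whose own coding part is 6 bases, had 26.2% and 22.6% in the alignment-based tables and 19.7% and 16.2% in the alignment-free ones. Cacnb4-202 had 10.4% and 10.2% in the alignment-based tables and 31.0% and 31.6% in the alignment-free ones. The alignment-based tables also gave 16.4% and 17.3% of the gene's TPM to Cacnb4-205, a non-coding transcript of 208 bases. That share rests on 28 counts in replicate 1 and 22 in replicate 2, and the alignment-free tables list the transcript at 0. Per length, a few counts on so short a transcript weigh heavily in TPM: protein-coding transcripts held 83.6% of the TPM of Cacnb4 in replicate 1 but 99.7% of its counts.

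**Figure D5:**
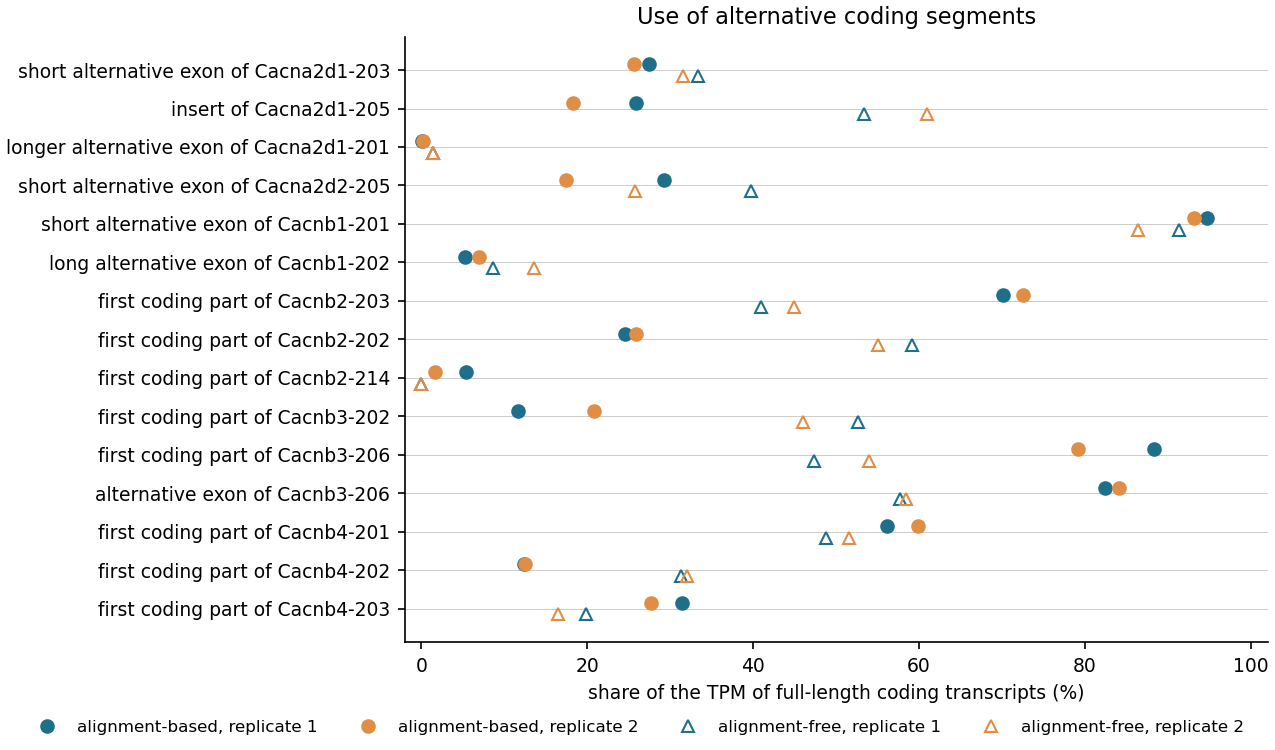
Share of the TPM of full-length coding transcripts, in percent, held by transcripts with each alternative coding segment, in the alignment-based tables (filled circles) and the alignment-free tables (open triangles) of replicate 1 (blue) and replicate 2 (orange). The Cacnb1 pair lies far apart in all tables, with the short exon at 86.4% or more. Circles and triangles are well separated for the Cacnb3 segments, the starts of Cacnb2-203, Cacnb2-202 and Cacnb4-202, and the Cacna2d1-205 insert.

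Cacna2d3 was mostly 1 form. Cacna2d3-201 held 83.3% in replicate 1 and 69.3% in replicate 2 of the alignment-based tables and 73.8% and 65.0% of the alignment-free ones. Transcripts with a retained intron made up 14.03% in replicate 1 and 25.8% in replicate 2 of the alignment-based tables, with Cacna2d3-202 the highest of them at 7.90% and 12.8%.

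Cacna2d2 was spread over several coding forms that differ by few codons (1148 to 1157 codons). Cacna2d2-208 led the alignment-based tables with 33.3% in replicate 1 and 38.1% in replicate 2, and Cacna2d2-201 the alignment-free ones with 27.2% and 35.4%. Transcripts with the 21-base exon printed above summed to 29.3% and 17.5% of full-length coding TPM in the alignment-based tables and to 39.7% and 25.7% in the alignment-free ones. They were thus the smaller part in all 4 tables. Among them, Cacna2d2-202 had 19.5% in replicate 1 and 14.2% in replicate 2 in the alignment-based tables and 9.53% and 8.21% in the alignment-free ones. Cacna2d2-207, a non-coding transcript of 671 bases, had 12.4% and 12.1% in the alignment-based tables. Those shares of TPM rest on 20.27 of the gene's 1291 counts in replicate 1 and 14.62 of 967 in replicate 2.

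For Cacna2d4 the coding transcript Cacna2d4-201 took 71.6% of counts in replicate 1 and 81.6% in replicate 2 in the alignment-based tables. Of the TPM it took 16.4% and 36.8%. The retained-intron transcript Cacna2d4-204, of 419 bases, had 50.7% of the TPM in replicate 1 and 0 in replicate 2, beside the shorter effective length in replicate 1 given above. The non-coding transcript Cacna2d4-202, of 761 bases, had 29.1% in replicate 1 and 58.8% in replicate 2 of the alignment-based tables, and 51.5% and 53.3% of the alignment-free ones. A further non-coding transcript, Cacna2d4-208, had 3.19% and 20.8% in the alignment-free tables. Per length, these shares rest on few counts, 5.81 and 4.44 for Cacna2d4-202. From the coding transcripts alone, a measure added after seeing the data, Cacna2d4 measured 0.22 TPM in replicate 1 and 0.25 TPM in replicate 2.

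Retained-intron transcripts are annotated for 6 of the members. Their share was lower in replicate 1 than in replicate 2 for 5 of the 6 in the alignment-based tables and for 4 of the 6 in the alignment-free ones. For comparison, 7689 genes had such transcripts and a mean of 1 TPM or more. Over these genes the share was lower in replicate 1 for 77.4% in the alignment-based tables and for 74.4% in the alignment-free ones. The median share over these genes was 10.3% in replicate 1 and 14.6% in replicate 2 in the alignment-based tables. In these tables Cacnb2 had 23.6% in replicate 1 and 31.1% in replicate 2, above the median in both, and Cacnb3 had 2.44% and 3.797%, below it in both.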

How the data were processed

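Per the text deposited with each library, values refer to mm10 and GENCODE M21, the gene table and an alignment-based transcript table having been made from a transcriptome alignment and the alignment-free transcript table from reads and an index. The quantifiers, their versions and their strand setting: not given in the sources used here. Expected counts and TPM were computed by the authors, per the file headers, as were estimated counts and TPM of the alignment-free tables. Deposited percent values of isoform shares were recomputed from TPM for both kinds of table.

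The 8 members and all lists were chosen with earlier results of these data known. The genes named are the members, the 3 most abundant genes of each pathway list, the 2 most abundant of each marker list (given only where they bear on a member), list genes at 0, and transcripts with a mean share of 10% or more in either kind of table; further named genes and transcripts, and the alternative coding segments, were chosen after their values were seen. Not every abundant list gene is reported here. Detected means 1 TPM in both libraries. For the ratio between libraries, deposited expected counts were rounded, genes with a mean of 10 counts kept, and log2 CPM taken with edgeR 4.0.16 (TMM, prior count 2); DESeq2 1.42.0 size factors were an alternative. The steps were tested on simulated data. With 1 group there is no test and no p-value. Full-length coding transcripts have at least 50% of the longest coding sequence of the gene. Protein identity was taken from translated coding sequences in a global alignment (BLOSUM62, free end gaps, Biopython 1.88), as RefSeq proteins were not used here. A count of 0 allows 3 counts, 0.0927 CPM in replicate 1 and 0.121 in replicate 2, for counting error only. Levels, their order and detection from protein-coding transcripts alone, segment sums and the comparison of tables after subtracting the median were added after seeing the data.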

Additional observations from a re-analysis of the deposited data

How the results depend on the processing

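Sums depended on the table and the denominator. The summed beta level was 278.9 TPM in the gene table, 420.0 TPM in the alignment-free table and 632.2 TPM when rescaled to nuclear protein-coding genes. The summed alpha2delta level was 144.0, 232.8 and 326.3 TPM in the same order, and its ratio to beta was 0.516 in the gene table and 0.554 in the alignment-free one. Leaving out either replicate gave 0.503 to 0.529 for that ratio and 0.956 to 1.24 for beta over high-voltage alpha-1. The number of members detected was 7 or 8 under every alternative run, the 8th being Cacna2d4. The order of members kept at least 27 of 28 pairs under the alternatives run, except that it kept 26 from protein-coding transcripts alone. There Cacnb1 (65.4 TPM) passed Cacnb4 (57.3 TPM), and Cacna2d2 (10.27 TPM) passed Cacnb2 (8.37 TPM, against 21.4 TPM from all transcripts). The level of 8.37 TPM leaves out Cacnb2-210, which is not annotated as coding despite its reading frame of 604 codons. The alignment-based tables gave that transcript alone 7 TPM (replicate 1) and 7.3 TPM (replicate 2). The place of Cacnb2 below Cacna2d2 thus rests on the annotated class of Cacnb2-210. By CPM, 0 members passed the fold threshold between the libraries under any scaling, filter, prior count or threshold run, whereas by TPM the log2 ratio of replicate 1 over replicate 2 was 0.97 for Cacna2d4. In 4 members 1 transcript led every table, beside 64.4% of 12413 genes with a mean of 1 TPM or more and more than 1 transcript. With coding transcripts alone the number was again 4, but Cacnb2 was lost and Cacna2d4 gained. The share over all genes was not taken for coding transcripts alone. For Cacna2d4 the leading coding transcript had 27.94 counts in replicate 1 and 24.47 in replicate 2 of the alignment-based tables. No paired analysis was possible because there is 1 group. The cause of differences between the tables was not tested. Depth limits Cacna2d4 most, at 39 and 30 counts.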

Other observations

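Promoter windows of 300 bases around annotated starts, from RefSeq on GRCm38.p6, were given for 7 of the 8 members, 12 windows in all; Cacna2d4 was not among them. The number of CG dinucleotides ranged from 3 to 43 per window, beside a median of 7 over 32851 windows of all genes. Cacna2d2 had 43, Cacna2d1 42, Cacna2d3 41 and the most upstream window of Cacnb4 40. Genes with several starts mixed both kinds of window. In Cacnb4 the window at the internal start had 5, in Cacnb3 the upstream window had 7 and the next one 29, and in Cacnb1 the windows had 34 upstream and 3 downstream. These are counts of letters in a window and were not set against the measured levels.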
